A study of Mus musculus with 10 samples.

Results

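Macrophage and myeloid marker genes were followed through the bladders of mice that lack 1 of 2 matrix proteoglycans. The set holds 40 genes picked by symbol for what they mark in blood cells, out of 55536 genes counted. They and the other lists were chosen with earlier results of these data known, so counts beside all genes only describe these data. It covers pan-leukocyte genes, macrophage surface and lysosome genes, Fc receptors with their signalling adaptors, transcription factors of the lineage, NADPH oxidase subunits, and genes of dendritic cells, neutrophils and mast cells. RNA was sequenced from bladder tissue of C57BL/6 mice, 4 wild-type (*WT*) libraries, 3 *OMD*-/- libraries and 3 *PRELP*-/- libraries. Osteomodulin (OMD) and PRELP are secreted small leucine-rich proteoglycans of the extracellular matrix, and the comparison asks what the bladder expresses without each. Both knockouts are constitutive, with the coding sequence replaced by a β-galactosidase reporter in every cell, and the titles name the second group PRELP_knockout while its genotype is spelled PRLEP-/-. Neither age nor sex of the mice is given in the labels, and nothing there says whether each library is a separate animal, so *p*-values measure only the spread between these samples. The group sizes in the paper differ from those of the labels, which were followed. The labels speak of homogenised bladder tissue, the paper of isolated epithelia, and the smooth muscle list summed to between 195 and 1229 CPM in the 10 libraries. CPM is a gene's read count scaled to a fixed library size, with TMM factors over all libraries.

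Macrophages are resident phagocytes of the bladder wall, lying mainly in the connective tissue under the urothelium. They depend on CSF1R signalling for survival, are specified by the transcription factor PU.1 (*Spi1*), and sense antibody-coated particles through Fcγ receptors. Those receptors signal through adaptors that carry an ITAM motif, and the phagosome they open is loaded with an oxidant-producing NADPH oxidase built around gp91phox (*Cybb*). Dendritic cells share much of this programme, while neutrophils and mast cells are marked by granule proteins.

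The *Prelp* count was 74, 46 and 46 in the *PRELP*-/- libraries against 16374, 19429 and 18078 in *OMD*-/-, and *Omd* had 0 counts in each *OMD*-/- library against 0 to 12 in *WT*. *Prelp* thus followed the labels, while *Omd* was near the detection limit in every group and could not check them. Totals ran from 20391437 to 46269079 counts per library. Libraries did not spread evenly within their groups. *PRELP*-/- replicate 1 lay far from replicates 2 and 3 (a median chi-square of 43.8 and 46.3 times that of counting noise, against 2.19 between replicates 2 and 3). *OMD*-/- replicate 1 lay at 7.90 and 7.41 times from its own group, and closer, at 3.71, to *PRELP*-/- replicate 2. Y-linked transcripts were high in *WT* replicates 1 and 2, near 0 in *WT* 3 and 4, near 0 in *OMD*-/- 2 and 3, and of intermediate level in all 3 *PRELP*-/- libraries and *OMD*-/- replicate 1, so the groups were not balanced for them. *Xist*, the transcript of the inactive X chromosome, had 107, 129, 23019 and 27694 counts in *WT*, 810, 2094 and 1677 in *OMD*-/- and 7, 1212 and 1207 in *PRELP*-/-. *OMD*-/- replicate 1 and *PRELP*-/- replicates 2 and 3 thus held both Y-linked and *Xist* reads, and whether a library comes from 1 animal is not known. No pair of libraries agreed within counting noise, and each was counted as 1 sample.

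In *WT* bladder the most abundant of the 40 transcripts per length was *Lyz2*, which encodes the lysozyme of macrophages and other myeloid cells. Its level was 162 CPM per kb of exon, followed by *Tyrobp* (21.3), *Mpeg1* (12.9) and *Cd14* (12.8), all on the per-length scale. *Lyz2* stood above *Tyrobp*, and *Tyrobp* above *Mpeg1*, in separate ranges over the 4 libraries. From *Mpeg1* down to *Clec9a* each gene overlapped the next in its range over the 4 libraries, so the order of neighbours is not resolved. The ends of that stretch were apart, *Mpeg1* at 12.06 to 13.68 CPM per kb and *Clec9a* at 0.6754 to 0.9324. At the foot of the order were some of the neutrophil and mast cell genes: *S100a8* had 0.0474 CPM per kb, *Cpa3* 0.108 and *Retnlg* 0.129. The scavenger receptor gene *Marco* was next to them with 0.0765. *Cma1* (0.252), *S100a9* (0.276) and *Mcpt4* (0.458) were higher. *Mcpt4* differed among *WT* libraries, with 1.005 and 0.669 in replicates 1 and 2 and 0.0791 and 0.0792 in replicates 3 and 4. *S100a8*, an abundant granule-associated protein gene of neutrophils, had at most 3 counts in every one of the 10 libraries.

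**Figure D1:**
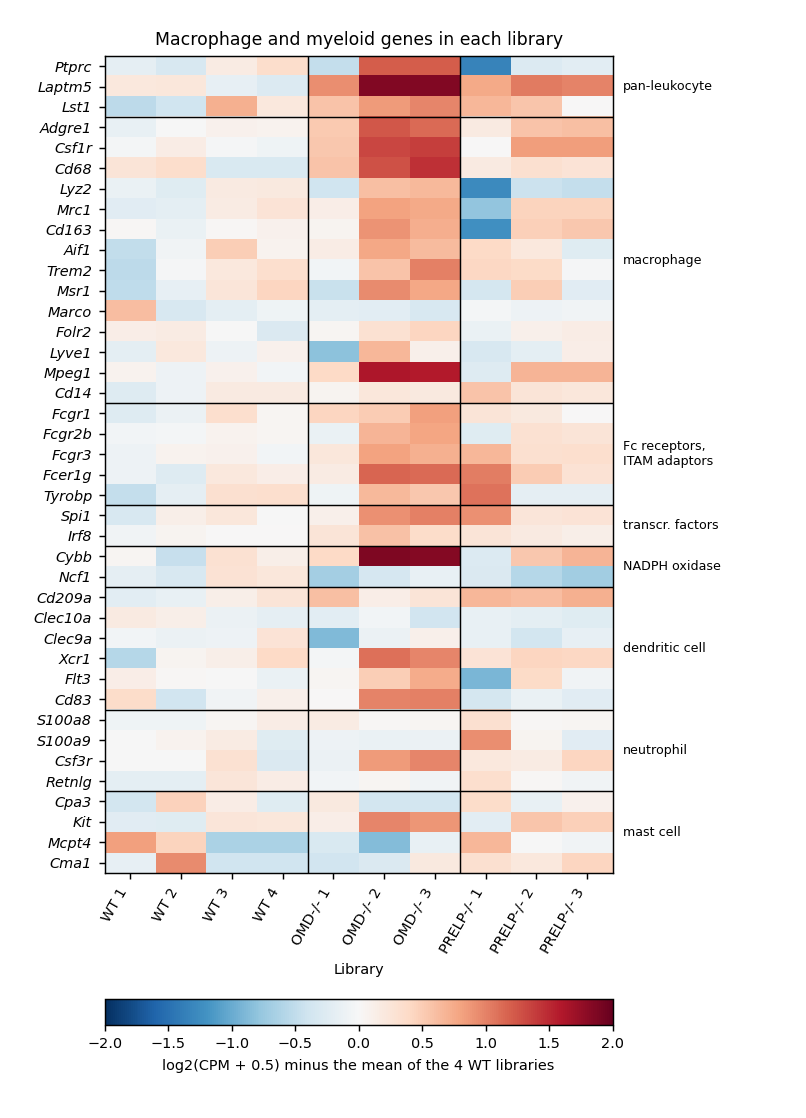
Level of each of the 40 genes (rows, grouped by role) in each library (columns), as log2(CPM + 0.5) minus the mean of the 4 *WT* libraries, red higher and blue lower. Red fills the columns of *OMD*-/- replicates 2 and 3, while *OMD*-/- replicate 1 is paler and *PRELP*-/- replicate 1 holds the deepest blue.

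The start-site regions of 3 genes that rose in *OMD*-/- are shown, chosen to contrast a sequence motif they hold or lack. Of the 40 genes, 30 had promoters in the RefSeq set used here (GRCm38.p6). The 250 bases upstream were searched on both strands for AGGAAG, a core bound by PU.1 and other ETS factors. The motif occurred in 19 of the 35 promoters of these genes and in 29.48% of all 32851 promoters. Capitals mark each match, read on either strand. The *Fcer1g* region (chr1:171234366-171234599, minus strand) has 1 match, which begins 44 bases before the start site. The *Mrc1* region (chr2:14229164-14229391, plus strand) has 3 matches on the opposite strand, at 210, 168 and 36 bases before the start. The *Mpeg1* region (chr19:12460520-12460769, plus strand) has none. For *Fcer1g* and *Mrc1* the 16 and 22 bases inside an annotated exon are left out. A match describes the letters only, not binding.
Fcer1g: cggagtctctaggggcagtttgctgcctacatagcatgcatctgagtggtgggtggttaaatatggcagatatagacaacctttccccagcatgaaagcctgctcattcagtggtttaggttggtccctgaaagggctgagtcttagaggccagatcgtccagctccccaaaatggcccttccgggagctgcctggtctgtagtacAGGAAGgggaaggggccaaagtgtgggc
Mrc1: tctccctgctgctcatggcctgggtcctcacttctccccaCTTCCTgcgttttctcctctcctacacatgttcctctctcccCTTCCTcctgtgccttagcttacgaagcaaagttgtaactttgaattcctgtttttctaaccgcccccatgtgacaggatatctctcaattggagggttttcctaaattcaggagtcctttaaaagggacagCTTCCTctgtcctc
Mpeg1: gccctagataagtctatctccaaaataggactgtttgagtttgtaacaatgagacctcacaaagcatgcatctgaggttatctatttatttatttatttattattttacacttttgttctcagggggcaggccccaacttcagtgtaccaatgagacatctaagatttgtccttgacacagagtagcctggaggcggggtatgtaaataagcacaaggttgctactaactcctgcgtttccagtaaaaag

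In *OMD*-/- bladder, 33 of the 40 genes had enough counts for a test, and 12 of them rose while 0 fell against *WT* in edgeR (quasi-likelihood test, *p* adjusted after Benjamini-Hochberg over all 16647 tested genes). Those 12 are 36.4% of the tested members, beside 29.4% of all tested genes called in either direction and 14.3% called higher. The median log2 fold change was 0.61 over the tested members and 0.00 over all genes, and 30 of the 33 lay above 0, beside 50% of all genes. In bulk tissue, more cells of a type and more RNA per cell cannot be told apart. The 12 genes were *Laptm5*, *Cybb*, *Mpeg1*, *Cd68*, *Csf1r*, *Adgre1*, *Fcer1g*, *Spi1*, *Fcgr3*, *Cd163*, *Mrc1* and *Irf8*.

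*Laptm5*, a lysosomal membrane protein gene of leukocytes (chromosome 4, 130913125 to 130936141), had 38.8, 39.3, 30.0 and 27.8 CPM in *WT* and 64.3, 123 and 123 in *OMD*-/-. Every knockout library was above every *WT* library. The log2 fold change was 1.59 (SE 0.23, edgeR adjusted *p* = 0.00138). The other pan-leukocyte genes did not pass. *Ptprc*, which encodes CD45, had 15.5, 14.1, 19.9 and 22.6 CPM in *WT* and 12.6, 41.6 and 41.6 in *OMD*-/-. Replicates 2 and 3 were above every *WT* library and replicate 1 below every one (log2 fold change 0.82, SE 0.41, edgeR adjusted *p* = 0.180). *Lst1*, a small leukocyte membrane protein gene, gave 0.92 (SE 0.40).

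Of the macrophage genes, 13 of 14 were tested, 6 rose and the others did not pass. Summed, the 14 genes had 427 CPM in *OMD*-/- replicate 1, inside the *WT* range of 387.8 to 463.1 CPM, and 809 and 813 CPM in replicates 2 and 3. *Adgre1*, which encodes F4/80, the surface marker of mouse macrophages (chromosome 17, 57358691 to 57483527), had 14.8, 16.5, 17.5 and 17.3 CPM in *WT* and 24.0, 39.5 and 36.9 in *OMD*-/-. The groups did not overlap, and the log2 fold change was 1.004 (SE 0.16, edgeR adjusted *p* = 0.00152). *Csf1r*, the receptor gene for the growth factor that macrophages need, had 43.7, 49.7, 44.3 and 42.5 CPM in *WT* and 65.3, 115 and 118 in *OMD*-/-. It too was higher in all 3 libraries than in any *WT* library (1.13, SE 0.18, edgeR adjusted *p* = 0.00179). *Hmgxb3* overlaps it on the other strand over 873 exonic bases, and the strand setting of the counting is not given in the sources used here, so its level is uncertain.

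*Cd68*, a lysosomal glycoprotein gene of phagocytes (chromosome 11, 69664213 to 69666153), had 13.3, 14.2, 8.85 and 8.82 CPM in *WT* and 16.6, 27.4 and 31.1 in *OMD*-/-. The *WT* libraries themselves fell into a higher and a lower pair, and all 3 knockout libraries were above both (1.13, SE 0.24, edgeR adjusted *p* = 0.00645). *Mpeg1*, the gene of the pore-forming protein perforin-2 (chromosome 19, 12460779 to 12465283), had 58.6, 52.3, 59.3 and 53.7 CPM in *WT* and 73.9, 172 and 169 in *OMD*-/-. These groups were apart as well (1.29, SE 0.27, edgeR adjusted *p* = 0.00965).

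2 scavenger receptor genes rose with overlapping groups. *Cd163*, which encodes the haemoglobin-haptoglobin receptor (chromosome 6, 124304656 to 124330527), had 14.0, 12.4, 13.8 and 14.5 CPM in *WT* and 14.3, 25.9 and 23.1 in *OMD*-/-. Replicate 1 sat within the *WT* range (0.61, SE 0.18, edgeR adjusted *p* = 0.0301). *Mrc1*, which encodes the mannose receptor (chromosome 2, 14229392 to 14332057), had 28.1, 28.8, 36.9 and 40.04 CPM in *WT* and 36.2, 58.4 and 56.0 in *OMD*-/-. Replicate 1 again lay inside the *WT* range (0.57, SE 0.19, edgeR adjusted *p* = 0.0464).

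*Lyz2* did not pass. It had 193, 179, 240 and 241 CPM in *WT* and 161, 320 and 330 in *OMD*-/-, so replicate 1 was below every *WT* library and replicates 2 and 3 above every one (0.33, SE 0.24, edgeR adjusted *p* = 0.353). *Lyz2* shares 15.4% of its 50-base stretches with another gene, mainly *Lyz1*. The other tested macrophage genes were *Trem2* (0.65), *Msr1* (0.58), *Aif1* (0.53), *Folr2* (0.29), *Cd14* (0.14) and *Lyve1* (0.11), given as log2 fold changes, and none passed. *Marco* had too few counts for a test.

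**Figure D2:**
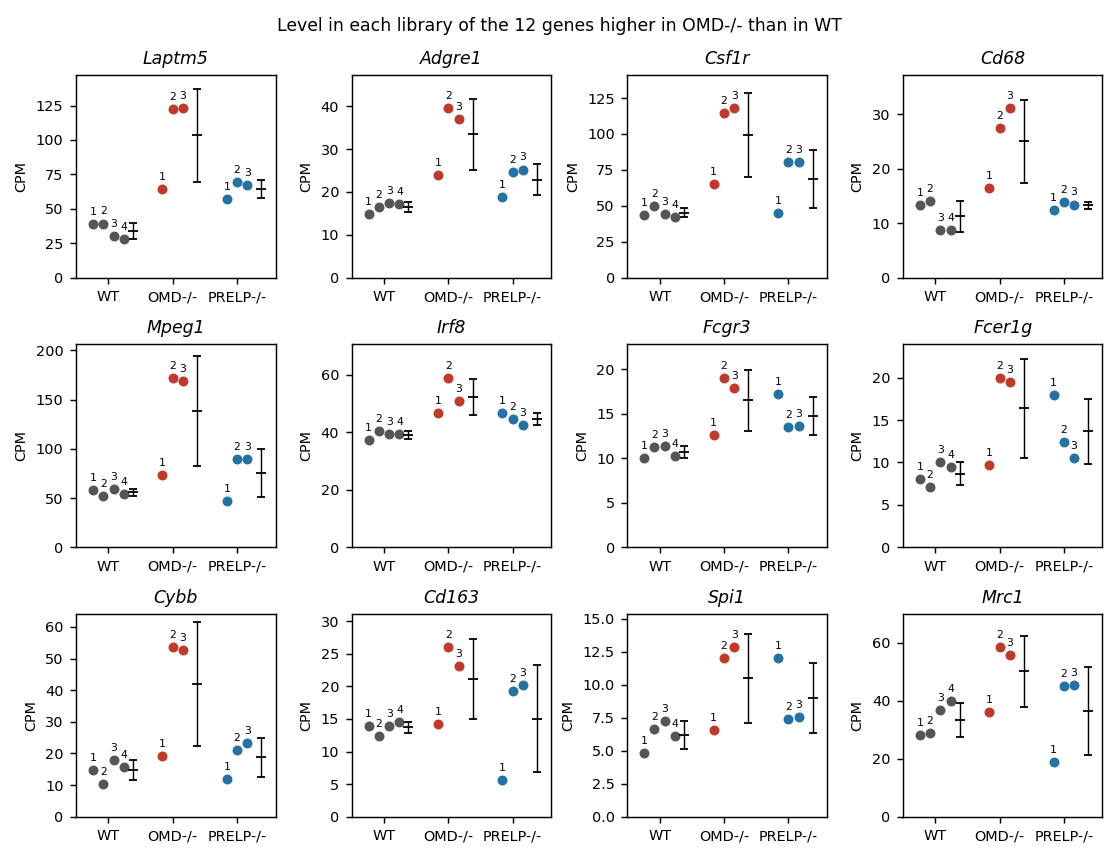
CPM in each library (points, numbered by replicate) of the 12 genes higher in *OMD*-/- than in *WT*, with the mean and SD of each group as a black bar to its right; each axis starts at 0. In all 12 panels *OMD*-/- replicates 2 and 3 are above every *WT* library, and replicate 1 is below both of them.

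Of the 5 Fc receptor and adaptor genes, 2 rose. *Fcer1g*, the gene of the ITAM-bearing γ chain through which Fc receptors signal (chromosome 1, 171229572 to 171234365), had 8.01, 7.15, 10.04 and 9.52 CPM in *WT* and 9.69, 20.0 and 19.5 in *OMD*-/-. Replicate 1 lay within the *WT* range (0.90, SE 0.24, edgeR adjusted *p* = 0.0190). *Fcgr3*, an activating low-affinity IgG receptor gene (chromosome 1, 171051174 to 171064935), had 9.98, 11.3, 11.3 and 10.3 CPM in *WT* and 12.7, 19.0 and 17.9 in *OMD*-/-. All 3 knockout libraries were higher (0.61, SE 0.15, edgeR adjusted *p* = 0.0137). *Fcgr3* shares 9.58% of its 50-base stretches, mainly with *Fcgr2b*, the inhibitory receptor gene, so reads may be split between them.

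*Fcgr2b* (0.50, adjusted *p* = 0.0859), *Fcgr1*, the high-affinity receptor gene (0.65, adjusted *p* = 0.0569), and *Tyrobp*, the gene of the ITAM adaptor DAP12 (0.36, adjusted *p* = 0.304), did not pass in edgeR with Benjamini-Hochberg adjustment. The *Fcgr1* libraries of *OMD*-/- were all above those of *WT*.

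Both transcription factor genes rose. *Spi1* (chromosome 2, 91082390 to 91115756) had 4.81, 6.67, 7.23 and 6.10 CPM in *WT* and 6.59, 12.04 and 12.8 in *OMD*-/-. Replicate 1 overlapped *WT* (0.75, SE 0.24, edgeR adjusted *p* = 0.0365). *Irf8*, a regulator of monocyte and dendritic cell development (chromosome 8, 120736358 to 120756694), had 37.2, 40.5, 39.5 and 39.5 CPM in *WT* and 46.8, 58.9 and 50.9 in *OMD*-/-. It had the smallest change of the 12 and groups that did not overlap (0.40, SE 0.10, edgeR adjusted *p* = 0.0118).

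*Cybb* (chromosome X, 9435252 to 9487771) had 14.8, 10.3, 17.8 and 15.7 CPM in *WT* and 19.2, 53.5 and 52.8 in *OMD*-/-. Replicate 1 was just above the highest *WT* library and the others far above it (1.4996, SE 0.37, edgeR adjusted *p* = 0.0198). *Ncf1*, which encodes the cytosolic oxidase subunit p47phox, gave −0.42 (SE 0.19, edgeR adjusted *p* = 0.120). *Gtf2ird2* overlaps *Ncf1* on the other strand over 408 exonic bases, so its level is uncertain.

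None of the 6 dendritic cell genes passed. Their log2 fold changes were 0.94 for *Xcr1*, the chemokine receptor gene of cross-presenting cells, 0.74 for *Cd83*, 0.49 for *Flt3*, 0.33 for *Cd209a*, −0.26 for *Clec10a* and −0.32 for *Clec9a*. *Csf3r*, the receptor gene for the neutrophil growth factor, gave 0.78 and *Kit* 0.79, neither past the threshold. *Kit* also marks interstitial cells of Cajal, so it does not stand for mast cells alone. *S100a8*, *S100a9*, *Retnlg*, *Cpa3*, *Mcpt4* and *Cma1* had too few counts for a test, the highest being 1.11 CPM of *Mcpt4* in *WT* replicate 1. Of the 33 tested genes, 9 had groups that did not overlap, all higher in *OMD*-/-, which is 27.3% beside 39% of all tested genes apart in either direction and 20.5% in that one.

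**Figure D3:**
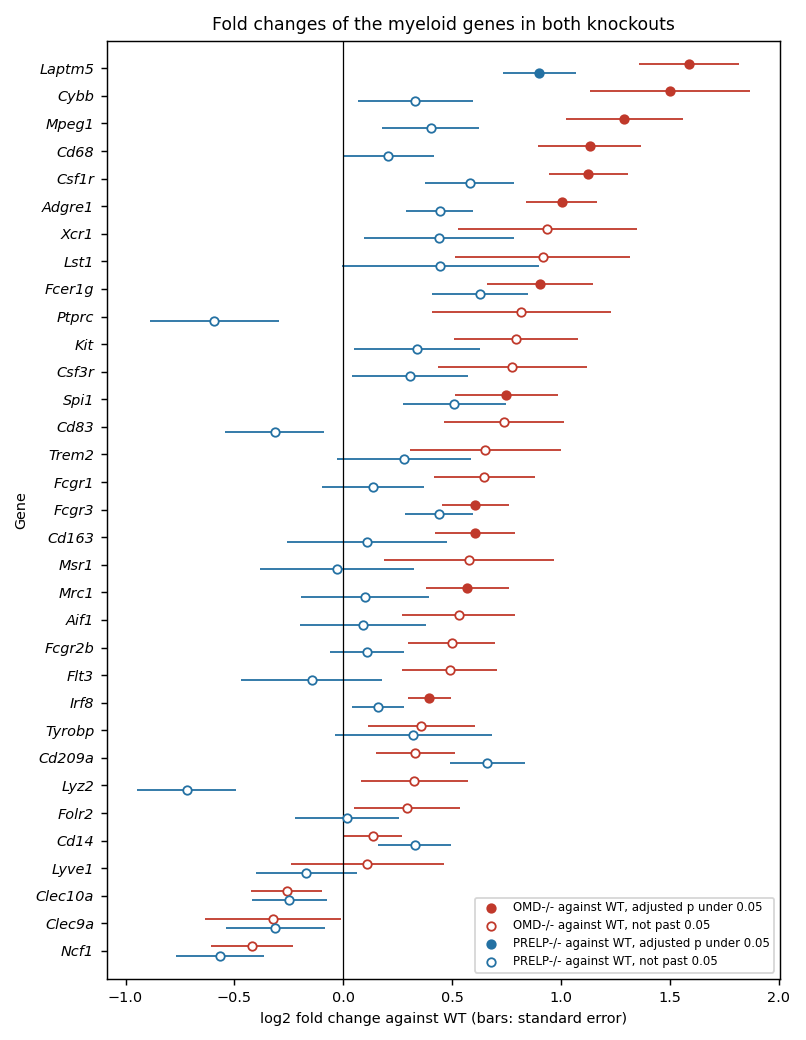
Log2 fold change against *WT* (horizontal axis) of the 33 genes tested in both knockouts, red for *OMD*-/- and blue for *PRELP*-/-, with the standard error as a bar and filled points where the adjusted *p* is under 0.05. Of the points, 12 red and 1 blue are filled, and both comparisons use the same 4 *WT* libraries.

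The 3 *OMD*-/- libraries differed in these genes. Replicates 2 and 3 were above *OMD*-/- replicate 1 in 31 of the 33 tested genes, with a median log2 difference of 0.81, beside −0.02 over 16428 genes. That difference had a Spearman correlation with exon length of 0.32 over the tested members and 0.28 over the 16428 genes. The number of tested members above every *WT* library was 10 in replicate 1 and 29 each in replicates 2 and 3. The corresponding share of all tested genes was 34.5%, 32.1% and 32.1%. Without replicate 1 the number of genes called went from 12 of 33 to 20 of 34, without replicate 2 it was 5 and without replicate 3 it was 6, while 25.5%, 18.2% and 17.2% of all tested genes were called. Summing libraries that lay close together left 1 gene beside 9.06% of all tested genes. It was *Adgre1*, which passed under each of the 16 alternatives run. The call of *Mrc1* was lost under 8 of them, those of *Spi1*, *Cd163* and *Cybb* under 6 each, and those of *Laptm5*, *Cd68* and *Csf1r* under 1. Between the libraries with few Y-linked reads, *WT* 3 and 4 against *OMD*-/- 2 and 3, 22 of 33 genes rose and 1 fell, *Ncf1*, beside 53.7% of all tested genes called in either direction. With the presence of Y-linked reads as a covariate 15 rose and 1 fell, beside 34.8% of all tested genes. The pattern across libraries was shared by lymphocyte genes. All 7 B and plasma cell genes rose in the main fit, in which 14.3% of all tested genes rose. The list summed to 8.16 to 17.5 CPM in *WT* and to 39.7, 205 and 204 CPM in *OMD*-/-. Of these markers *Mzb1* had 0 counts in *WT* replicates 1 and 2, and *Ms4a1* and *Pax5* had 0 in *PRELP*-/- replicate 1. Of 8 T cell genes 6 rose, the list summing to 15.7 to 18.5 CPM in *WT* and 20.2, 55.1 and 54.6 CPM in *OMD*-/-. Fibroblast genes rose too, 4 of 6, from 8042 to 9276 CPM in *WT* to 17680, 20900 and 21350 CPM. The part of these cells in the result was not tested.

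**Figure D4:**
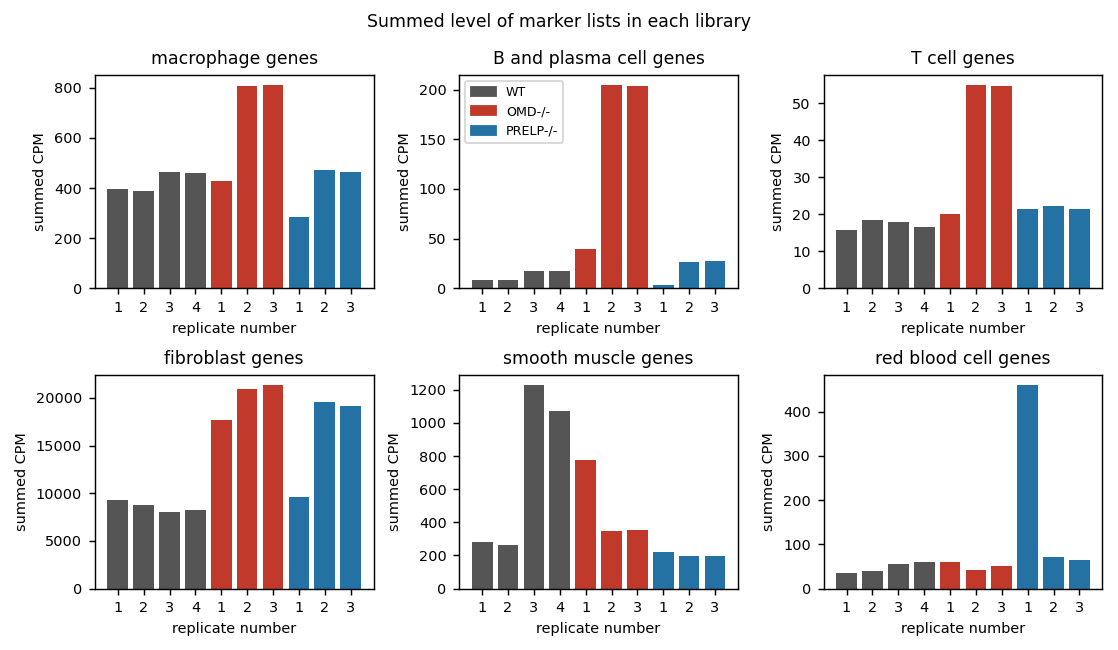
Summed CPM (vertical axis, from 0) of the macrophage members and of 5 lists of other cells in each library, grey *WT*, red *OMD*-/- and blue *PRELP*-/-, numbered by replicate. Macrophage, B cell and T cell sums peak in *OMD*-/- replicates 2 and 3, fibroblast sums are high in 5 knockout libraries, and red blood cell sums peak in *PRELP*-/- replicate 1.

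Other genes of the myeloid programme were read from lists. Of 27 tested further macrophage and monocyte genes, 11 rose and 1 fell in *OMD*-/-. Beside these and the list counts below, 14.3% of all tested genes rose and 15.1% fell in that comparison. The 3 genes of C1q, the first complement component and a product of resident macrophages, rose by 1.28 (*C1qa*), 1.08 (*C1qb*) and 0.95 (*C1qc*) on the log2 scale. The lysosomal protease gene *Ctss* rose by 1.52, *Cx3cr1* by 1.07, *Siglec1* by 1.16 and *Stab1* by 1.03. *Lilrb4a* changed by −3.68 but shares exons with another gene model on its strand, so it is uncertain. Of 10 ITAM kinases and effectors 6 rose, among them *Syk*, the kinase that the adaptors recruit (1.28), *Inpp5d* (1.12) and *Vav1* (0.96). Among other genes of the oxidase, *Rac2* rose by 1.63 and *Cyba* by 0.48. Among growth factors *Csf1*, the ligand of CSF1R, rose by 0.48, while *Flt3l* (−1.70) and *Csf3* (−1.83) fell. *Flt3l* overlaps another gene model on its strand. *Csf3* rests on few reads, with 3, 2 and 7 counts in *OMD*-/- against 19, 11, 20 and 21 in *WT*. Of 9 further dendritic cell genes 4 rose, including *Itgax*, which encodes CD11c (1.41). Of the 11 further neutrophil genes 2 were testable and rose, *Mmp9* (0.96) and *Il1r2* (0.65), while *Ly6g*, *Ltf*, *Ngp*, *Camp*, *Elane* and *Stfa2* had at most 3 counts in every library.

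In *PRELP*-/- bladder, 1 of 34 tested members passed and 0 fell, 2.94% beside 7.29% of all tested genes called, 1.4% higher and 5.89% lower. *Laptm5* was 57.3, 69.4 and 67.3 CPM, above every *WT* library (log2 fold change 0.90, SE 0.17, edgeR adjusted *p* = 0.0159). That call was lost under 7 of 16 alternatives, with an edgeR adjusted *p* of up to 0.457, among them the fits without *WT* replicate 3, *PRELP*-/- replicate 2 or *PRELP*-/- replicate 3. The median over tested members was 0.18, and 25 of 34 lay above 0 beside 52.1% of all genes. Groups did not overlap for 8 members that were higher and 2 that were lower, 29.4% beside 30.3% of all tested genes.

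The defining macrophage genes took different courses among the *PRELP*-/- libraries. *Adgre1* was 18.7, 24.6 and 25.2 CPM, above every *WT* library (0.44, SE 0.15, edgeR adjusted *p* = 0.111). *Csf1r* was 45.1, 80.7 and 80.3 CPM, with replicate 1 inside the *WT* range (0.58, SE 0.20, edgeR adjusted *p* = 0.118). *Cd68* was 12.5, 13.9 and 13.4 CPM and overlapped *WT* (0.21, SE 0.21).

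*Mrc1* was 18.9, 45.3 and 45.4 CPM and *Cd163* 5.58, 19.3 and 20.2 CPM. In both, replicate 1 was below every *WT* library and the other libraries above every one, with log2 fold changes of 0.10 (SE 0.29) and 0.11 (SE 0.37). *Lyz2* was 87.5, 157 and 152 CPM, below every *WT* library (−0.72, SE 0.23, edgeR adjusted *p* = 0.0912). *Ptprc* was 6.68, 14.5 and 15.2 CPM (−0.59, SE 0.30). The 2 members lower in every library were *Lyz2* and the dendritic cell receptor gene *Clec9a* (−0.31).

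Of the other genes called in *OMD*-/-, *Mpeg1* was 46.8, 89.4 and 89.9 CPM, *Cybb* 11.8, 21.2 and 23.3 CPM and *Irf8* 46.8, 44.5 and 42.4 CPM. *Irf8* was above *WT* in every library, while *Mpeg1* and *Cybb* were not, replicate 1 being low. *Fcer1g* was 17.9, 12.5 and 10.6 CPM, *Fcgr3* 17.3, 13.6 and 13.6 CPM and *Spi1* 12.04, 7.37 and 7.54 CPM, each above every *WT* library and highest in replicate 1. *Cd209a*, a C-type lectin gene of monocyte-derived dendritic cells, was 11.4, 11.0 and 11.8 CPM against 5.98 to 8.46 in *WT* (0.66, SE 0.17, edgeR adjusted *p* = 0.0536). The remaining tested members ran from −0.57 for *Ncf1* to 0.45 for *Lst1*, and *Mcpt4*, the mast cell protease gene tested in this comparison alone, gave 0.02 (SE 0.86). Of the further macrophage genes *C1qa* (0.80) and *C1qc* (0.56) rose and *Lilrb4a* (−4.58), uncertain for its shared exons, fell.

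*PRELP*-/- replicate 1 differed from replicates 2 and 3 by gene length. Across the 33 tested genes, the log2 difference of replicate 1 from the others had a Spearman correlation of −0.65 with exon length, beside −0.52 across 16428 genes. Genes of 1 library share its depth and preparation and are not independent replicates. At or under the median length of 3293 bases, 11 of 17 members were higher in replicate 1 (median 0.11), above it 3 of 16 (median −0.62). The short adaptor gene *Tyrobp* differed by 1.25 and *Cd163* by −1.74 on the log2 scale, and *Lyz2*, a short gene, by −0.82. Red blood cell genes summed to 460 CPM in that library and 35.3 to 70.4 CPM in the others. Replicate 1 also had 20380 CPM of urothelial genes against 12580 and 12150 CPM in replicates 2 and 3. Its fibroblast genes summed to 9585 CPM against 19560 and 19190, and its blood endothelial genes to 299.5 CPM against 530 and 516. The part of these lists in the result was not tested. Without replicate 1, 8 of 34 members passed against *WT*, a share near the 22.2% of all tested genes called in that fit. *Laptm5*, *Adgre1*, *Csf1r*, *Mpeg1*, *Cd163* and *Cd209a* rose, and *Lyz2* and *Ncf1* fell.

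**Figure D5:**
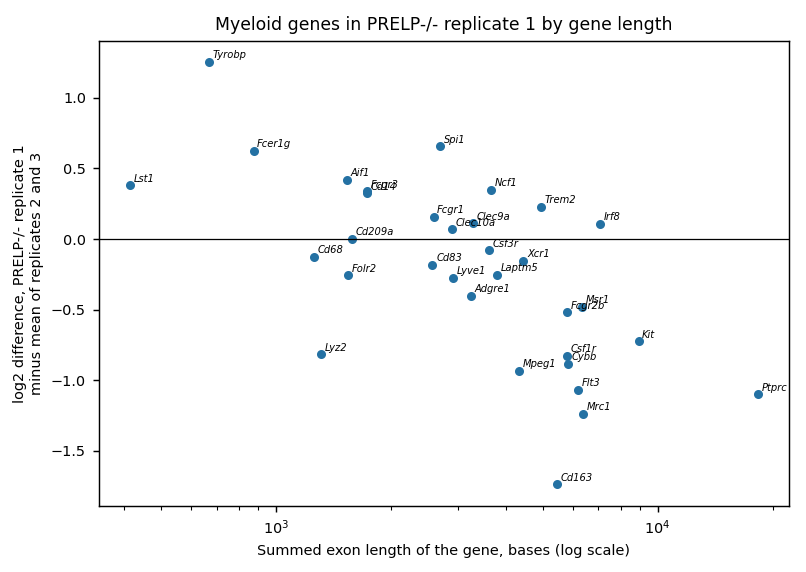
Log2 difference of *PRELP*-/- replicate 1 from the mean of replicates 2 and 3 (vertical axis) against summed exon length in bases (horizontal axis, log scale), 1 point per gene for the 33 genes tested in every comparison. Short genes such as *Tyrobp* sit high and long genes such as *Ptprc*, *Mrc1* and *Cd163* low, with *Lyz2* low among the short ones.

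Compared directly, 0 of 33 tested members passed between *PRELP*-/- and *OMD*-/- in edgeR after Benjamini-Hochberg adjustment, and the smallest adjusted *p* was 0.690. Over all 15805 tested genes 0.00633% were called. DESeq2 called 0 members beside 54 of all tested genes, and limma-voom with sample quality weights called 15 members beside 1010 of all tested genes. Blocking by replicate number raised the genes called over all genes from 1 to 43 and left the members at 0. The log2 fold change was above 0 for 4 of the 33, beside 49.8% of all genes, and the median was −0.45. Groups did not overlap for 5 members lower in *PRELP*-/-, *Cd68* (−0.91), *Cd83* (−1.04), *Lyz2* (−1.03), *Fcgr1* (−0.50) and *Irf8* (−0.22), and for 1 higher, *Cd209a* (0.34). That is 18.2% of the tested members beside 14.8% of all tested genes, of which 8.75% were lower and 6.1% higher. *OMD*-/- replicate 1 was above the mean of *PRELP*-/- replicates 2 and 3 in 9 of 33 members, with a median log2 difference of −0.17. Over 16428 genes 52.31% lay above 0, with a median of 0.01. This difference had a Spearman correlation with exon length of −0.55 over the members and −0.21 over the 16428 genes.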

How the data were processed

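Poly(A) RNA from bladder tissue was made into stranded libraries whose adaptors carried molecular identifiers, per the labels. The authors deposited raw read counts per gene for each of 10 libraries, without normalization. The headers of the deposited count files name HISAT2 alignments, while the submitters' processing notes list bcl2fastq, STAR 2.5.2b, featureCounts and DESeq2 with builds GRCm38 and hg38. Which aligner was used for which step, how strand was set and whether the identifiers were used are not given in the sources used here. The deposited tables of the authors' own DESeq2 comparisons (fold changes, test statistics and p-values) were not used.

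All 55536 identifiers matched GENCODE vM21 (GRCm38), the source of symbols, coordinates and exon lengths. The 2 groups of each comparison were fitted alone in edgeR 4.0.16 (R 4.3.3) with TMM normalization, filterByExpr and robust dispersion. Its quasi-likelihood test was two-sided, p-values were adjusted after Benjamini-Hochberg over all tested genes, and the threshold was 0.05. The standard error is the fold change over the square root of the F statistic. CPM values were scaled by TMM over all libraries. Alternatives used DESeq2 1.42.0 and limma 3.58.1. Scripts were tested on simulated data. Depth ran from 20391437 to 46269079 counts, and 3 counts, the floor, were 0.0596 to 0.166 CPM, for counting error only.

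The members and lists were chosen with earlier results of these data known. Values in every library were printed for members with an adjusted p under 0.05 in any comparison and for Adgre1, Csf1r, Cd68, Lyz2, Mrc1, Cd163 and Ptprc. Deviations of same-numbered libraries from their group means correlated at 0.302, 0.180 and 0.148 between PRELP-/- and OMD-/-, and were not all positive against WT. Replicate 1 lay apart from the others in both knockout groups, so these values cannot show whether libraries were paired. The main fits took them as unpaired, with blocking by replicate number as an alternative. Promoters came from RefSeq (GRCm38.p6). Values of some genes in the further lists are not reported here.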

Additional observations from a re-analysis of the deposited data

Results flagged for a closer look

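*Clec9a*, a dendritic cell receptor gene, was singled out because 1 *WT* library stood apart from the others. It was 3.07 CPM in *WT* replicate 4 and 2.35, 2.22 and 2.23 CPM in *WT* replicates 1 to 3. Chance alone marks about 1 in 20 such groups, and 34 genes were examined. *Clec1b* shares exonic bases with *Clec9a* on the same strand.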

How the results depend on the processing

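The direction of every called member held under each alternative run. Among values past the threshold in neither fit, 4, 37 and 34 changed sign in *OMD*-/- against *WT*, *PRELP*-/- against *WT* and *PRELP*-/- against *OMD*-/-. The members called in *OMD*-/- against *WT* (12) numbered 20 in limma-voom with sample quality weights, 1 with close libraries summed, 23 in libraries with few Y-linked reads, and 5 to 20 with 1 library left out. The genes called (4899) numbered 7212 in limma-voom with sample quality weights, 2485 with all 3 groups in 1 fit and 1658 with close libraries summed. They numbered 8989 in libraries with few Y-linked reads, and 2951 to 4850 with 1 library left out. The members called in *PRELP*-/- against *WT* (1) numbered 6 in DESeq2, 13 in limma-voom, 2 with all groups in 1 fit, 0 with the replicate block, 0 with close libraries summed, 0 in libraries with Y-linked reads, and 0 to 8 with 1 library left out. The genes called (1209) numbered 2925 in DESeq2, 6963 in limma-voom, 2485 with all groups in 1 fit, 115 with the replicate block, 536 with Y-linked reads as a covariate, 13 with close libraries summed, 119 in libraries with Y-linked reads, and 475 to 3807 with 1 library left out. Between *PRELP*-/- and *OMD*-/- the members called (0) numbered 15 in limma-voom and 0 with any 1 library left out. The genes called (1) numbered 5 without a filter, 54 in DESeq2, 1010 in limma-voom, 3 with all groups in 1 fit, 43 with the replicate block, 2 with Y-linked reads as a covariate, 0 with close libraries summed, and 1 to 36 with 1 library left out. The cause was not tested.

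In *OMD*-/- against *WT* the replicate block left 11 members, losing *Cybb* and *Mpeg1* and gaining *Xcr1*. Same-numbered libraries there correlated at 0.0414, −0.0446 and 0.0240, and for *PRELP*-/- and *WT* at −0.0598, 0.137 and −0.101. These values cannot show whether those libraries were paired. Summing close libraries, and taking only libraries with few or with Y-linked reads, were chosen after seeing the data. A lone library left in a group is assumed to vary like the others. At these depths a difference in *S100a8*, *Retnlg* or *Cpa3* was not detectable, and the library with the most reads, *WT* replicate 1, had 0 counts of each.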
